A study of Mus musculus with 24 samples.

Results

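The cytochrome P450 (Cyp) and flavin monooxygenase (Fmo) genes of the mouse lung comprised 43 of the 23891 genes measured, or of the 16088 that are protein-coding. They were all protein-coding genes whose symbol is Cyp, digits, letters and digits, or Fmo and digits, which gave 37 Cyp and 6 Fmo genes. RNA-Seq was performed on the left lobe of the lung from 24 wild-type C57BL/6 mice of both sexes. Adult (20 wk old, n = 5) and aged (80 wk old, n = 5) mice received saline only. Further aged mice were sensitized and challenged through the nose with house-dust mite (HDM), a common aeroallergen, at 50 µg per dose (n = 7). The last group of aged mice had the same HDM challenge and also dexamethasone (Dex), a synthetic glucocorticoid, injected into the abdomen at 4 mg/kg every 72 h (n = 7). Challenged mice were killed 24 h after their final challenge, and no adult mouse was challenged. The comparisons ask which genes changed with HDM in aged lungs, which changed again with Dex, and which differ between adult and aged lungs without challenge.

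P450 enzymes are heme proteins of the endoplasmic reticulum or mitochondria that insert an oxygen atom into drugs, inhaled chemicals, fatty acids, sterols and retinoids, and the microsomal ones take their electrons from P450 oxidoreductase (Por). Flavin monooxygenases oxidize soft nitrogen and sulfur atoms with a flavin cofactor in place of heme. In the mouse lung, club cells, the secretory cells of the airway lining, are the classic site of xenobiotic P450s, and Fmo2 is known as the lung form of its family.

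The values are normalized read counts (CPM), the reads of a gene scaled so that all genes of a sample add up to 1 M. Tests used limma on log2(CPM + 1) with Benjamini-Hochberg adjustment over 17744 genes whose mean over the 24 lungs reached 1 CPM, and a gene was called when its adjusted p was under 0.05. Of the 43 genes, 33 passed that filter and 10 did not. Depth, 7SL RNA and sex touch every result. Each library held an estimated 10 to 33.1 M reads. A detection limit of 3 reads therefore lay between 0.0907 and 0.299 CPM, which covers counting error only. The share of reads on 7SL, the noncoding RNA that guides secreted proteins to the endoplasmic reticulum, was 25.5% on average in HDM lungs and 12.2% in aged saline lungs (two-sided exact permutation test of 7 against 5 samples, p = 0.00758, adjusted p = 0.0303 over 4 comparisons), and a larger share lowers the CPM of all other genes. By Xist and Ddx3y, the adult saline group held 5 females, the aged saline group 2 females and 3 males, the HDM group 2 females and 5 males, and the HDM + Dex group 4 females and 3 males.

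Stretches upstream of 6 genes are shown because these genes carry the main patterns: Cyp2f2 and Fmo2 were the most abundant, Cyp2a5 and Cyp2a4 are paralogs with near-identical upstream sequence and very different levels, and Cyp1a1 and Cyp1b1 are the classic targets of the aryl hydrocarbon receptor (AHR). Each stretch spans the bases from 160 to 41 before the RefSeq transcript start (GRCm38.p6). Capitals mark GCGTG, the core of the AHR response element, or its reverse complement CACGC.
Cyp2f2, chr7:27119795-27119914, plus strand: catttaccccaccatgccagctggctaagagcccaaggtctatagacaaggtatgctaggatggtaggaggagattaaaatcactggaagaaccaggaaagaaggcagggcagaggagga
Fmo2, chr1:162898799-162898918, minus strand: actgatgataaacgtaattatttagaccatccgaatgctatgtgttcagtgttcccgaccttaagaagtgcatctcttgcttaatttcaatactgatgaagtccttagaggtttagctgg
Cyp2a5, chr7:26835179-26835298, plus strand: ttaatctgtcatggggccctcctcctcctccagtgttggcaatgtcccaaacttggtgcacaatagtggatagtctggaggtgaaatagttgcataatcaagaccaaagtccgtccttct
Cyp2a4, chr7:26307032-26307151, plus strand: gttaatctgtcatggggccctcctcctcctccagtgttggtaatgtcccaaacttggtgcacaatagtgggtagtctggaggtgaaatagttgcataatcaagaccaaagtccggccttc
Cyp1a1, chr9:57697453-57697572, plus strand: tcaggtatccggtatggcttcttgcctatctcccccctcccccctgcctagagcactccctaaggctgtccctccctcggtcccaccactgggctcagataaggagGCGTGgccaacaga
Cyp1b1, chr17:79715102-79715221, minus strand: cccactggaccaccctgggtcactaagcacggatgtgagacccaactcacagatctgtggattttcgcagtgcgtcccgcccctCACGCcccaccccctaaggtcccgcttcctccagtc
Over the 250 bases before the start, the sequences of Cyp2a4 and Cyp2a5 were identical at 245 of 251 aligned positions (97.6%). The core lay 54 bases before the start of Cyp1a1 and 76 bases before that of Cyp1b1. It was found on either strand within 250 bases in 10 of the 34 genes with a RefSeq promoter (29.4%), compared with 28.2% of all 32851 promoters. TGTTCT (reverse complement AGAACA), the core bound by 1 subunit of the glucocorticoid receptor, was found in 3 of the 34 (8.82%) and in 16.1% of all promoters. Such a match is a description of the letters and not a binding site.

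In lungs without challenge, transcript levels per kb of exon were spread over several orders of magnitude. Cyp2f2, which activates naphthalene and related inhaled aromatics, had the highest level at 426 CPM per kb over the 10 saline lungs. It was followed by Fmo2 (133 CPM per kb), Cyp4b1 (97.3 CPM per kb), which oxidizes fatty acids and furans, Cyp2b10 (71.7 CPM per kb), the phenobarbital-inducible P450, and Fmo1 (48.6 CPM per kb). Cyp2s1 (24.7 CPM per kb) and Cyp2a5 (24.5 CPM per kb), the coumarin hydroxylase, came next with nearly equal levels. Cyp2f2 and Fmo2 together held 62.5% of the summed CPM of the 43 genes in aged saline lungs, compared with 42.7% after HDM and 48.4% after HDM + Dex.

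The summed CPM of all 43 genes was lower in challenged lungs. The sum ran from 1777 to 2636 CPM in aged saline lungs (median 2563) and from 514 to 1515 CPM in HDM lungs (median 779), so that the groups did not overlap. It ran from 676 to 2003 CPM after HDM + Dex (median 1226), between the other medians and overlapping both groups. Adult saline lungs ranged from 1441 to 2557 CPM (median 2184), the lowest being replicate 1, whose 7SL share was 42.0%.

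In aged lungs challenged with HDM, 17 of the 33 genes were lower than in saline lungs and 2 were higher, compared with 21.2% lower and 4.04% higher of all genes tested (25.3% in either direction). The lower genes included the abundant airway P450s Cyp2f2, Cyp2a5, Cyp2s1, Cyp2b10 and Cyp4b1 and the flavin monooxygenases Fmo1, Fmo2, Fmo4 and Fmo5. The higher genes were Cyp4f18, which inactivates a chemotactic leukotriene in myeloid cells, and Cyp7b1, the oxysterol hydroxylase. The median log2 fold change of the 33 genes was -0.70, and that of all genes was -0.23. After median-of-ratios rescaling, which moved the median of all genes to -0.01, 14 were lower and 2 higher, compared with 2052 lower and 1935 higher of all 17684 genes tested, and the calls of Cyp2u1, Fmo1 and Fmo5 were lost. Of the lower genes, 5 (Cyp2b19, Cyp2e1, Cyp3a13, Cyp4f15 and Fmo4) averaged under 1 CPM in HDM lungs and passed the filter through the other groups. Since whole lung was measured, fewer cells of a type and less RNA per cell cannot be told apart.

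**Figure D1:**
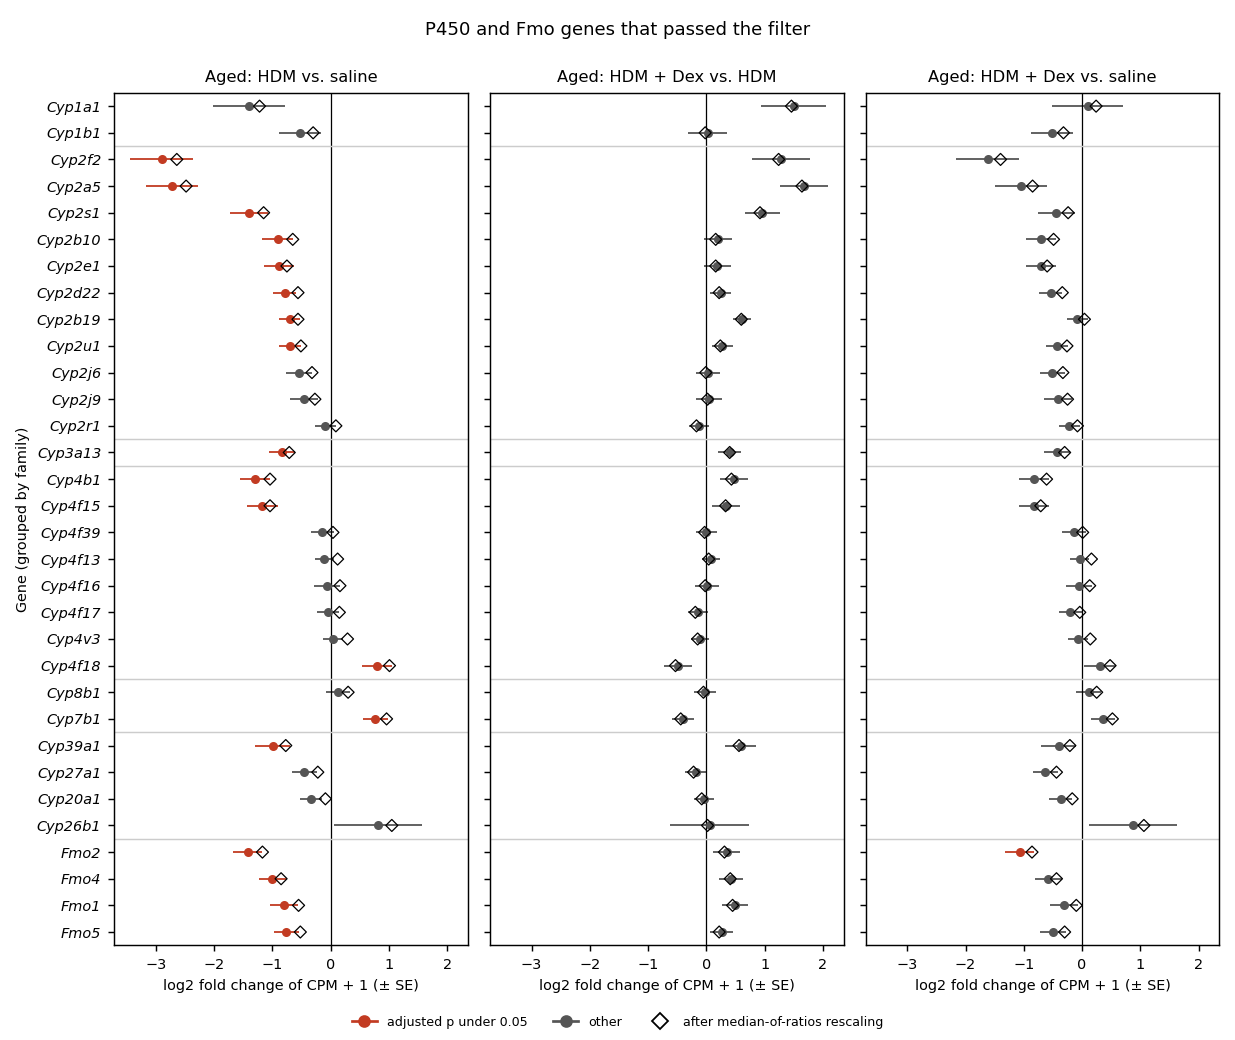
Log2 fold change of CPM + 1 with its standard error for 32 of the genes that passed the filter, grouped by family, in the 3 comparisons of aged lungs; red marks an adjusted p under 0.05 and open diamonds the value after median-of-ratios rescaling. The lower genes of HDM vs. saline lie mainly among Cyp2 and Fmo, the middle panel has no called gene, and the last has only Fmo2.

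The Cyp2 family, which handles most inhaled chemicals, had 8 of its 11 tested genes (72.7%) lower after HDM and none higher. Among these 8, Cyp2b19 (mean 0.45 CPM) and Cyp2e1 (mean 0.57 CPM) averaged under 1 CPM in HDM lungs. They passed the filter only through the groups where they are higher. Of all genes tested, 21.2% were lower. After rescaling, 7 of the 11 were lower, compared with 11.6% of all genes. Cyp2f2 measured 966, 950, 870.0, 592 and 888 CPM in the 5 aged saline lungs, and 30.9 to 360.1 CPM (median 66.8) in the 7 HDM lungs. Each HDM lung was below the lowest saline lung, and the highest HDM values belonged to the female lungs, replicates 6 (360.1 CPM) and 7 (266 CPM), and to male replicate 2 (251 CPM). The mean fell from 853 ± 151 CPM (SD, n = 5) to 158 ± 131 CPM (SD, n = 7), a log2 fold change of -2.90 (SE 0.54, limma adjusted p = 0.00112). Cyp2a5 measured 34.5, 67.2, 39.9, 19.1 and 91.0 CPM in aged saline lungs and 2.44 to 12.5 CPM (median 5.38) in HDM lungs. The groups did not overlap although the saline lungs themselves were widely spread, and the log2 fold change was -2.72 (SE 0.45, adjusted p = 0.000561).

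Cyp2a4, a steroid hydroxylase and the paralog of Cyp2a5, was near the detection limit, from 0.255 to 0.702 CPM in aged saline lungs and up to 0.497 CPM in HDM lungs. Of the 50-base windows of the Cyp2a5 transcript, 40.8% also occur in other genes, mostly Cyp2a4, so that counting could move reads between the pair. Nothing of that kind touches Cyp2f2 or Cyp2s1, which shared 0% of their windows.

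Cyp2s1, a P450 of epithelia outside the liver, was 50.0 to 113 CPM in aged saline lungs and 17.3 to 72.5 CPM in HDM lungs. The ranges overlapped through saline replicate 4 and HDM replicates 6 and 7, the female HDM lungs, and the log2 fold change was -1.40 (SE 0.32, adjusted p = 0.00408). Cyp2b10 ran from 123 to 253 CPM in aged saline lungs and from 35.7 to 122 CPM in HDM lungs, without overlap but with neighboring values at the edge (log2 fold change -0.91, SE 0.26, adjusted p = 0.0145). Of its 50-base windows, 9.69% were shared, mostly with Cyp2b13.

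The lower-level Cyp2 genes followed with smaller changes. Cyp2d22 (log2 fold change -0.79, adjusted p = 0.00669), Cyp2u1 (-0.70, adjusted p = 0.0123), a fatty acid hydroxylase, and Cyp2b19 (-0.70, adjusted p = 0.00749), an arachidonate epoxygenase of keratinocytes, were lower. Cyp2e1, the ethanol-inducible P450, was also lower (-0.88, SE 0.26, adjusted p = 0.0156), from a median of 1.84 CPM to 0.465 CPM. The arachidonate epoxygenases Cyp2j6 (-0.54, adjusted p = 0.08) and Cyp2j9 (-0.46, adjusted p = 0.154) were not called. Cyp2r1, a vitamin D hydroxylase, had a log2 fold change of -0.09 (95% interval -0.47 to 0.29). By position, 8 genes of the family lie between Cyp2s1 and Cyp2t4 on chromosome 7 (25802475 to 27158668, GRCm38). All 5 of them that were tested were lower, compared with 21.2% of all genes tested. Among these 5, Cyp2b19 averaged 0.451 CPM in HDM lungs and passed the filter through the other groups. Cyp2a4, Cyp2g1 and Cyp2t4 of that region did not pass the filter.

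**Figure D2:**
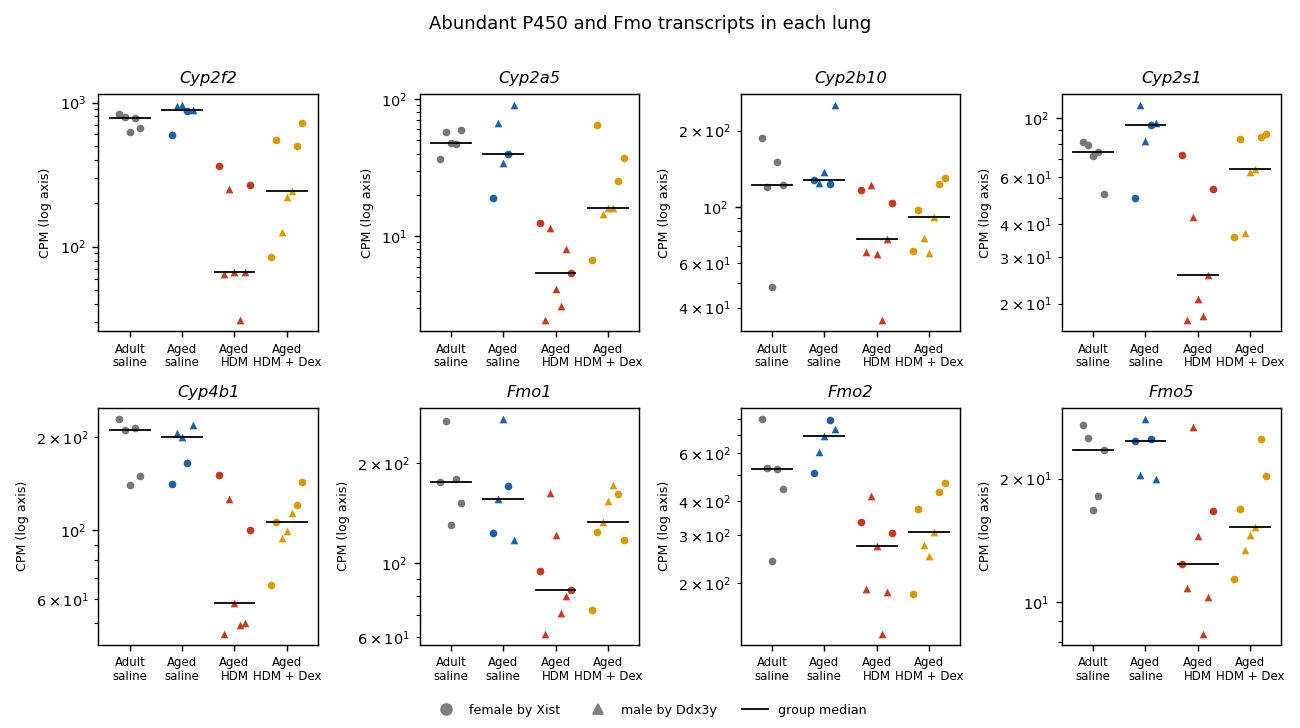
CPM (log axis) of 8 abundant genes in each lung of the 4 groups; circles are female and triangles male lungs, and lines are group medians. Cyp2f2, Cyp2a5, Cyp2b10 and Fmo2 show no overlap between aged saline and HDM lungs. In these genes the HDM + Dex lungs overlap the HDM lungs, and those of Fmo2 all lie below the aged saline lungs.

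Of the Fmo family, Fmo1, Fmo2, Fmo4 and Fmo5 were each lower after HDM, and Fmo2 and Fmo4 also after median-of-ratios rescaling. The share of all genes tested that was lower was 21.2%, and 11.6% after rescaling. Fmo4 averaged under 1 CPM in HDM lungs and passed the filter only through the groups where it is higher. Fmo2 measured 694, 607, 796, 505 and 736 CPM in aged saline lungs and 130 to 417 CPM (median 274) in HDM lungs. Every HDM lung was below the lowest saline lung, and the mean fell from 668 ± 114 CPM (SD, n = 5) to 262 ± 99.7 CPM (SD, n = 7) with a log2 fold change of -1.42 (SE 0.25, adjusted p = 0.00079).

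Fmo4 (-1.0, SE 0.23, adjusted p = 0.00437), a low-level member that averaged 0.856 CPM in HDM lungs, had no overlap between the groups either. Fmo1, which is abundant in mouse lung, ran from 117 to 273 CPM in aged saline lungs and 61.3 to 162.8 CPM in HDM lungs, with overlap (-0.80, SE 0.24, adjusted p = 0.019). Fmo5, which oxidizes ketones rather than amines, had a log2 fold change of -0.76 (SE 0.22, adjusted p = 0.0147). Fmo6 did not pass the filter and was at or under 0.753 CPM in each lung. Fmo1, Fmo2, Fmo4 and Fmo6 lie in one region of chromosome 1, and Fmo5 lies on chromosome 3.

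In the Cyp4 family of fatty acid hydroxylases, 2 of 8 genes were lower after HDM and 1 higher, a share of 37.5% called, compared with 25.3% of all genes. Cyp4b1 measured 200, 207, 166, 142 and 220.0 CPM in aged saline lungs and 46.2 to 151 CPM (median 58.3) in HDM lungs. Only HDM replicate 6, a female lung, exceeded the lowest saline value, and the log2 fold change was -1.30 (SE 0.26, adjusted p = 0.00164). Cyp4f15 was lower without overlap (-1.17, SE 0.26, adjusted p = 0.00312), from 1.77 to 3.56 CPM to at most 1.54 CPM. It averaged 0.663 CPM in HDM lungs and passed the filter only through the groups where it is higher. The 4 other Cyp4f genes of that region of chromosome 17 were not called and had log2 fold changes of -0.11 (Cyp4f13), -0.06 (Cyp4f16), -0.05 (Cyp4f17) and -0.14 (Cyp4f39), all of which turned positive after rescaling. Cyp4v3, also a fatty acid hydroxylase, was 37.8 to 48.3 CPM in aged saline and 32.5 to 60.1 CPM in HDM lungs, with a log2 fold change of 0.04 (95% interval -0.31 to 0.40).

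Cyp4f18 went the other way. It measured 6.57, 8.33, 5.03, 9.75 and 3.81 CPM in aged saline lungs and 5.89 to 16.6 CPM (median 13.3) in HDM lungs. Of the HDM lungs, only male replicate 2 was under the highest saline value, and the log2 fold change was 0.79 (SE 0.26, adjusted p = 0.0326). That call was lost without any one of HDM replicates 1, 4 or 5 or aged saline replicates 1, 3 or 5, in each sex alone, and with the 7SL share as a covariate. Cyp7b1 measured 2.26, 3.29, 4.25, 1.51 and 3.22 CPM in aged saline lungs and 3.94 to 7.22 CPM (median 6.00) in HDM lungs, so that only HDM replicate 1 lay within the saline range (0.77, SE 0.21, adjusted p = 0.0114). Neutrophil markers were not higher beside Cyp4f18: 2 of 4 were lower after HDM (1 after rescaling), and their sum was 74.0 to 245 CPM in aged saline and 39.5 to 216 CPM in HDM lungs. Of 5 macrophage markers 1 was higher (3 after rescaling), and their sum was 102 to 148 CPM in aged saline and 84.9 to 401 CPM in HDM lungs. The part of these cells in either rise was not tested.

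Among the Cyp1, sterol and retinoid P450s, Cyp39a1 and Cyp7b1 were called and Cyp1a1, Cyp1b1, Cyp26b1, Cyp27a1 and Cyp8b1 were not. Cyp1a1, which oxidizes polycyclic aromatics, measured 4.06, 62.7, 2.27, 2.56 and 3.46 CPM in aged saline lungs and 0.929 to 4.08 CPM (median 1.37) in HDM lungs. Aged saline replicate 2 alone set the high mean, and the log2 fold change was -1.40 with a wide error (SE 0.61, adjusted p = 0.092), or -0.61 without that lung, also not called. Cyp1a2 was at 0.700 CPM in that same lung and at the table's constant in 3 of the 5 aged saline lungs.

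Cyp1b1, expressed in stromal cells, was 10.3 to 21.2 CPM in aged saline lungs and 6.68 to 22.9 CPM in HDM lungs (-0.53, SE 0.36, adjusted p = 0.278). The 2 female HDM lungs had 22.9 and 21.3 CPM, and the 5 males had 6.68 to 11.3 CPM. Cyp26b1, which degrades retinoic acid, ranged from 4.45 to 50.0 CPM in aged saline lungs and 7.53 to 189 CPM in HDM lungs, so that the spread within a group exceeded any difference (0.81, SE 0.75, adjusted p = 0.432). Cyp39a1, an oxysterol hydroxylase, was lower (-0.99, SE 0.30, adjusted p = 0.0189), and so was Cyp3a13 (-0.83, SE 0.22, adjusted p = 0.00944), the only Cyp3 gene in the table. Cyp3a13 averaged 0.757 CPM in HDM lungs and passed the filter only through the groups where it is higher. Cyp27a1, the sterol hydroxylase of mitochondria (-0.45, adjusted p = 0.11), Cyp20a1, which has no known substrate (-0.33, adjusted p = 0.203), and Cyp8b1 of bile acid synthesis (0.13, adjusted p = 0.668) were not called.

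**Figure D3:**
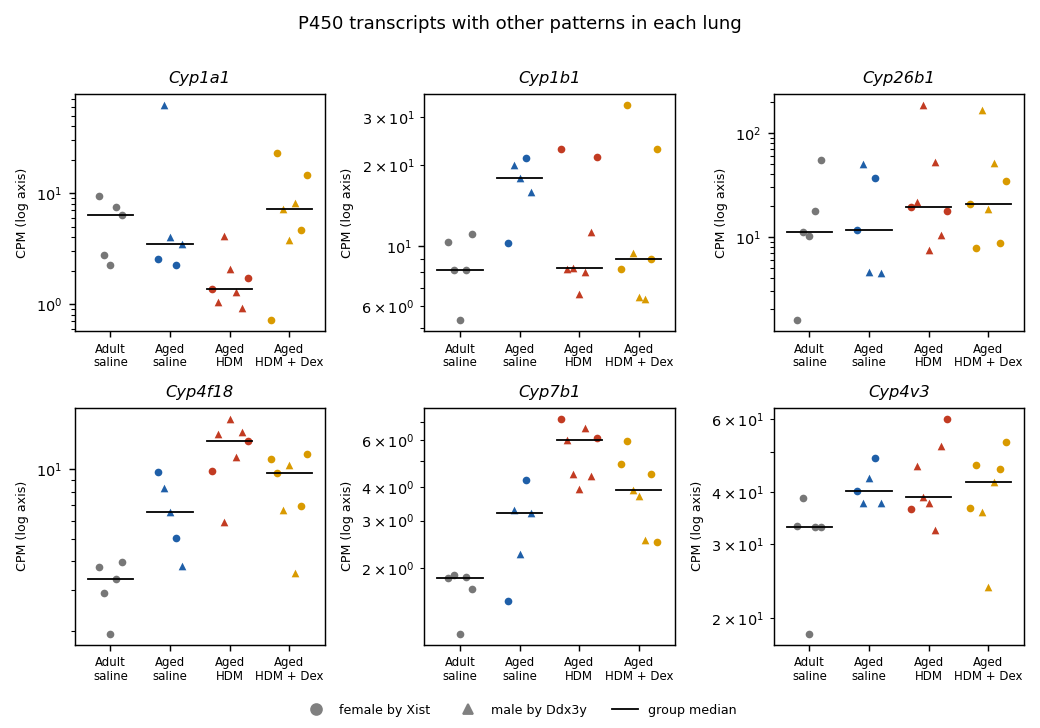
CPM (log axis) of 6 P450 genes in each lung; circles are female and triangles male lungs, and lines are group medians. Cyp4f18 and Cyp7b1 have their highest medians in HDM lungs, Cyp4v3 overlaps among the aged groups, and Cyp1a1 and Cyp26b1 have single lungs far above their group.

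Without overlap between aged saline and HDM lungs were 8 of the 33 genes (24.2%), all of them lower, compared with 8.71% of all genes tested. They included Cyp2a5, Cyp2b10, Cyp2b19, Cyp2f2, Cyp4f15, Fmo2 and Fmo4. Of these, Cyp2b19, Cyp4f15 and Fmo4 averaged under 1 CPM in HDM lungs and passed the filter only through the groups where they are higher. Both sexes were also compared on their own. In 5 HDM against 3 saline males, 28 of the 33 genes had a negative log2 fold change with a median of -0.82 (all genes -0.32), and 19 were called lower and 1 higher, with 5595 of all genes called. In 2 against 2 females, 23 were negative with a median of -0.24 (all genes 0.01), and limma called none of the 33 and 9 of all genes. All HDM lungs were below all saline lungs for 17 of the 33 genes in males (27.8% of all genes) and for 15 in females (27.3% of all genes).

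The sexes had unequal estimates for several genes, none of which passed the test of the difference. Cyp2s1 had a log2 fold change of -1.99 in males and -0.13 in females, Cyp4b1 of -1.76 and -0.31, and Cyp2f2 of -3.63 and -1.21. The test of that difference (limma interaction of sex and challenge) gave an adjusted p of 0.186 for Cyp2s1, 0.208 for Cyp4b1 and 0.248 for Cyp2f2, called none of the 33 genes, and had an unadjusted p under 0.05 for 9. Sex and 7SL share moved together in the HDM group: the 2 females had 15.4% and 15% 7SL and the 5 males 27.1% to 34.0%, so that they cannot be told apart there. With the 7SL share as a covariate, an alternative chosen after seeing the data, 3 genes were lower (Cyp2a5, Cyp2b19 and Fmo2) and 1 higher (Cyp7b1).

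Markers of the airway lining moved with these genes. All 6 club cell markers tested were lower after HDM (median log2 fold change -2.12), among them Scgb1a1 (-2.46, SE 0.48, adjusted p = 0.00143) and Scgb3a2 (-2.98, SE 0.54, adjusted p = 0.000906), the secretoglobins that define these cells. Their summed level was 4170 to 5893 CPM in aged saline lungs, 274 to 2466 CPM in HDM lungs and 512 to 4434 CPM in HDM + Dex lungs. All 8 ciliated cell markers were lower as well (sum 346 to 491 CPM in aged saline and 81.6 to 309 CPM in HDM lungs). Of all genes tested, 21.2% were lower. After rescaling, 5 of the 6 club cell and 7 of the 8 ciliated cell markers were lower, compared with 11.6% of all genes. Type 2 alveolar markers had 0 of 7 called by limma and 2 of 7 lower at an unadjusted p under 0.05, and their sums were 6610 to 14150 CPM and 4574 to 8362 CPM.

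The levels were also set against the club cell sum of each lung. Most of that sum is Scgb1a1, which averaged 4635 of 5021 CPM in aged saline and 1046 of 1140 CPM in HDM lungs. The ratios are thus mainly ratios to Scgb1a1. Cyp2f2 equalled 14.2% to 19.7% (median 16.6%) of the club cell sum in aged saline lungs and 7.83% to 19.3% (median 11.3%) in HDM lungs. Fmo2 equalled 11.8% to 15.2% (median 12.6%) in aged saline and 13.5% to 47.4% (median 30.2%) in HDM lungs. The ranges of both genes overlapped between the groups. Cyp2a5 had medians of 0.762% and 0.508%. Cyp2b10, Cyp2s1, Cyp4b1 and Fmo1 (3.24% in aged saline and 12.5% in HDM lungs) had higher medians after HDM as Fmo2 did. Cyp4b1 equalled 3.17% to 4.41% (median 3.40%) in aged saline and 5.6% to 18.0% (median 6.85%) in HDM lungs, without overlap. Cyp2s1 also had no overlap, with 1.2% to 2.33% and 2.45% to 6.57%. The ranges of Cyp2a5, Cyp2b10 and Fmo1 overlapped. These ratios are a description and had no test. The part of club cells in the results was not tested.

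**Figure D4:**
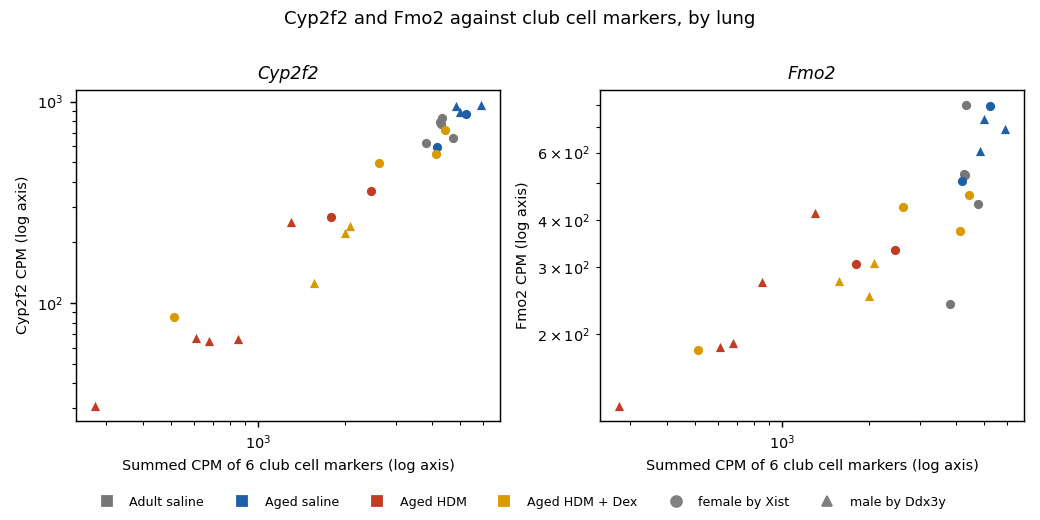
CPM of Cyp2f2 (left) and Fmo2 (right) against the summed CPM of 6 club cell markers in each of the 24 lungs, both on log axes; colors are groups, circles female and triangles male lungs. Most of the marker sum is Scgb1a1. HDM lungs lie low on both axes, and HDM + Dex replicates 4 and 7 lie beside the saline lungs in the plot of Cyp2f2.

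Other marker lists moved too. Of the fat markers 4 of 4 were lower after HDM, with sums of 11.8 to 25.9 CPM in aged saline and 0.519 to 14.7 CPM in HDM lungs. Of the heart markers 4 of 4 were lower, with sums of 494 to 917 CPM and 13.2 to 373 CPM. Fibroblast markers had 5 of 6 lower and 1 higher, endothelial markers 4 of 5 lower (after rescaling 2 and 1 lower), type 1 alveolar markers 2 of 5 lower, and goblet cell markers 2 of 4 higher. Only 1 of 4 liver markers was in the table, at or under 1.77 CPM in every lung. The part of these cells in the results was not tested.

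Genes that serve the P450s changed in part. Por, the electron donor of microsomal P450s, was lower after HDM (-0.96, SE 0.24, adjusted p = 0.0069), as were Cyb5a (-0.70), Pgrmc1 (-1.29) and Pgrmc2 (-0.36), giving 4 of 11 redox partners lower and none higher. After rescaling, 3 of the 11 were lower and 3 higher. Of 8 genes of heme synthesis, limma called none, 1 was lower at an unadjusted p under 0.05, and the median was -0.25. After rescaling, 1 of the 8 was called higher and none lower. Among 16 regulators of P450 genes, Tiparp (-0.89), a repressor and target of AHR, Ppara (-1.12), Rarb (-0.99) and Nr3c1 (-0.47), the glucocorticoid receptor, were lower, and Vdr (0.78), the vitamin D receptor, was higher. After rescaling, 3 regulators were lower and 2 higher, and Nr3c1 was not called (-0.22, adjusted p = 0.109). Ahr itself had a log2 fold change of 0.13 (adjusted p = 0.522). Of 3 further P450s with other names, Tbxas1, the thromboxane synthase, was higher (1.07, SE 0.21, adjusted p = 0.00152), while Cyp51 of cholesterol synthesis (-0.22) and Ptgis, the prostacyclin synthase (-0.24), were not called.

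Treatment of HDM-challenged mice with Dex gave no called gene among the 33, compared with 0.964% of all genes tested (0.75% higher and 0.214% lower). Groups without overlap were found for none of the 33 and 0.225% of all genes. At an unadjusted p under 0.05 limma gave 7 higher and 1 lower, compared with 13.5% of all genes in either direction. The largest estimates were those of Cyp2a5, Cyp1a1, Cyp2f2 and Cyp2s1. Cyp2a5 measured 6.68 to 64.9 CPM (median 16.1) in HDM + Dex lungs, compared with 2.44 to 12.5 CPM (median 5.38) in HDM lungs. Only HDM + Dex replicate 6 lay within the HDM range, and the log2 fold change was 1.67 (SE 0.41, adjusted p = 0.05 after rounding, and not under the threshold). It was called after median-of-ratios rescaling (adjusted p = 0.025), and adjusted p-values over its alternatives ran from 0.0138 to 0.645.

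The other large estimates overlapped more. Cyp2f2 ranged from 85.4 to 720 CPM (median 241) in HDM + Dex lungs, with 547, 498 and 720 CPM in female replicates 4, 5 and 7, and 85.4 CPM in female replicate 6 (log2 fold change 1.28, SE 0.50, adjusted p = 0.228). Cyp2s1 ranged from 35.6 to 87.5 CPM (0.96, SE 0.30, adjusted p = 0.116, and 0.0476 after rescaling), Cyp2b19 had an estimate of 0.61 (SE 0.16, adjusted p = 0.0661), and Cyp1a1 one of 1.5 (SE 0.56, adjusted p = 0.204). The HDM + Dex lung with the lowest Cyp2f2, replicate 6, also had a 7SL share of 30.2%, whereas replicates 4 and 7 had 11.3% each. In females alone the estimate for Cyp2f2 was 0.22 and in males alone 1.34, a difference of 1.12 (SE 0.87, limma interaction adjusted p = 0.988). Fmo2 (0.35, 95% interval -0.12 to 0.82) and Fmo1 (0.49, 95% interval 0.04 to 0.94) were not called.

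Club cell markers had median log2 fold change 0.99 with Dex, limma called 0 of 6 and all 6 were higher at an unadjusted p under 0.05. Heart markers had a median of 1.68, with 0 of 4 called and 3 higher at that level, and goblet cell markers 0.64, with 0 of 4 called and 2 higher. Of 8 ciliated cell markers 4 were higher with Dex, for example Dnah5 (1.41, SE 0.30, adjusted p = 0.0292), and of 6 fibroblast markers 1 was lower. Of 5 genes known to respond to glucocorticoids (Fkbp5, Tsc22d3, Per1, Zbtb16 and Sgk1), limma called 0 and none had an unadjusted p under 0.05, with log2 fold changes of -0.36 to -0.17. Tsc22d3, Per1 and Zbtb16 of that list were lower both in HDM and in HDM + Dex lungs compared with aged saline lungs, comparisons that share their saline samples. After rescaling Tsc22d3 kept that call in both. None of the redox partners, heme synthesis genes or P450 regulators was called, with 0 of 11, 0 of 8 and 2 of 16 at an unadjusted p under 0.05.

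Compared with aged saline lungs, HDM + Dex lungs had 1 of the 33 genes lower and none higher, against 1.44% lower and 0.445% higher of all genes tested (1.89% in either direction). This comparison shares its saline samples with HDM vs. saline and its treated samples with HDM + Dex vs. HDM. Fmo2 measured 182 to 465.7 CPM (median 308) in HDM + Dex lungs, each below the lowest saline lung, and the log2 fold change was -1.07 (SE 0.25, adjusted p = 0.0334). That call was lost without any one of aged saline replicates 1, 3, 4 or 5 or HDM + Dex replicates 1, 2, 3 or 6. Cyp2f2 (-1.62, SE 0.54, adjusted p = 0.115), Cyp2a5 (-1.05, SE 0.45, adjusted p = 0.19) and Cyp4b1 (-0.82, SE 0.26, adjusted p = 0.0985) had negative estimates that were not called. Cyp2d22 and Fmo2, 2 of the 33 genes (6.06%), had groups without overlap, compared with 2.4% of all genes.

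Between adult and aged lungs without challenge, none of the 33 genes was called by limma, compared with 0.654% of all genes (0.592% higher and 0.062% lower). At an unadjusted p under 0.05, 4 were higher and 1 lower, compared with 11.2% of all genes in either direction, and none of the 33 had groups without overlap, compared with 3.09% of all genes. Cyp1b1 measured 5.33, 8.15, 8.19, 10.3 and 11.1 CPM in adult lungs and 17.9, 19.9, 21.2, 10.3 and 15.9 CPM in aged lungs. Only aged replicate 4 fell within the adult range, and the log2 fold change was 0.90 (SE 0.23, adjusted p = 0.0924). Cyp4f18 was 1.94 to 3.98 CPM in adult and 3.81 to 9.75 CPM in aged lungs (0.84, SE 0.24, adjusted p = 0.148), and 3 of 4 neutrophil markers were higher in aged lungs, with sums of 22.9 to 73.0 CPM in adult and 74.0 to 245 CPM in aged lungs. The part of neutrophils in the Cyp4f18 values was not tested. Among abundant genes, which were not called, Cyp2f2 differed by 0.20 (95% interval -0.26 to 0.66), Cyp4b1 by -0.01 (-0.45 to 0.43) and Fmo1 by -0.13 (-0.66 to 0.40). Fmo2 differed by 0.48 (-0.11 to 1.07) and Cyp2b10 by 0.35 (-0.31 to 1.01), also not called. The median of all genes was 0.19 here, and the 7SL share averaged 20.7% in adult and 12.2% in aged lungs. Rescaling gave -0.02, -0.22, -0.34, 0.26 and 0.14 for the same genes in that order. Cyp2e1 had the largest negative estimate (-0.66, SE 0.23, adjusted p = 0.279). The adult group held no male, so that for the male aged lungs age and sex cannot be told apart.

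The 10 genes that did not pass the filter included the steroid-forming P450s Cyp11a1 and Cyp17a1, the brain cholesterol hydroxylase Cyp46a1, and Cyp1a2, Cyp2a4, Cyp2ab1, Cyp2c40, Cyp2g1, Cyp2t4 and Fmo6. Cyp11a1, which begins steroid synthesis, was at most 0.683 CPM in adult and 0.967 CPM in aged saline lungs, and reached 8.79 CPM in HDM + Dex replicate 7, where the other 6 lungs of that group had 0.144 to 1.54 CPM. Cyp2c40 was listed at the constant in all but 2 lungs and at 1.57 CPM in HDM + Dex replicate 4. That lung also had the highest Cyp1b1 (33.4 CPM) and Cyp1a2 (0.707 CPM) of the data set and a Cyp1a1 level of 22.96 CPM. Such values rest on 1 lung each and were not tested.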

How the data were processed

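Lung RNA of 24 mice was measured. According to the methods, stranded libraries were sequenced from both ends and processed with Picard, STAR and limma. The submitters' processing notes name mm9, whereas gene coordinates in the table match GENCODE M21 of GRCm38, which is used here. The authors deposited CPM, read counts scaled to the same total in each sample, and every value carries an added constant of 0.0001. Only 80.5% to 85.4% of low values were whole multiples of 1 read (within 0.05 of a spacing), so that counts were not recovered and depth is an estimate.

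Groups followed the sample labels. limma 3.58.1 in R 4.3.3 was fitted to log2(CPM + 1) of all 17744 genes whose mean reached 1 CPM, with eBayes trend and Benjamini-Hochberg adjustment, in one fit of the 19 aged samples and one of the 10 saline samples. A fold change on this scale understates the change of low genes. Before use, limma was tested on simulated data with known changes. The simulation had no shift in 7SL share and no sex difference, so that it cannot show how limma handles them. P-values measure the spread between these samples. The members and the gene lists were chosen with earlier results of these data known. Named genes were those with a mean of at least 20 CPM, those called (up to 15 a comparison), every tested Fmo gene, and Cyp1a1, Cyp1a2, Cyp1b1, Cyp2a4 and Cyp2a5. Other genes were named after their values were seen. Results of 1 gene are not reported here, although it is included in counts. Replicate numbers did not pair the samples. Alternatives were other pseudocounts and filters, rescaling, 7SL RNA left out, other groups in the fit, no trend, sample quality weights, a replicate block, a sex covariate and leaving out each sample. The 7SL share as a covariate, each sex alone, and a sex covariate with rescaling were added after seeing the data. Levels per kb used merged exons, and upstream sequences came from RefSeq for 34 of the 43 genes. Python 3.11.15 and pandas 2.3.3 were used.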

Additional observations from a re-analysis of the deposited data

Results flagged for a closer look

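For independent and normally distributed values, Dixon's 95% limit for a lung far from its group would flag about 1 in 20, or 4.7 of 94 groups. It was applied to CPM without logs, and the genes were measured in the same lungs, so that 4.7 cannot serve to judge an excess. In 13 of the 94 groups of the named genes, 1 lung lay farther from its group than this limit. In aged saline lungs these were Cyp1a1 in replicate 2 (62.7 CPM, the others 2.27 to 4.06), Cyp2b10 in replicate 5 (253 CPM, the others 123 to 137), Fmo4 in replicate 5 (4.16 CPM, the others 2.22 to 2.32), Cyp2d22 in replicate 4 (16.8 CPM, the others 14.9 to 15.4) and Cyp2f2 in replicate 4 (592 CPM, the others 870.0 to 966). In HDM lungs, male replicate 2 was far above the others in Cyp26b1 (189 CPM, the others 7.53 to 52.3), Cyp2d22 (15.7 CPM, the others 5.67 to 9.80) and Cyp1a1 (4.08 CPM, the others 0.929 to 2.05), and replicate 7 in Cyp2e1 (2.11 CPM, the others 0.0761 to 0.536). HDM + Dex replicate 2 had a Cyp26b1 level of 169 CPM, and the others had 7.71 to 51.6 CPM. In adult lungs, replicate 5 was high in Cyp2e1 (5.59 CPM, the others 2.70 to 3.01), and replicate 1 was low in Cyp4v3 (18.3 CPM, the others 33.04 to 38.7) and Cyp7b1 (1.13 CPM, the others 1.67 to 1.88). The causes were not tested.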

How the results depend on the processing

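For HDM vs. saline, the 19 called genes became 12 with a filter at 5 CPM, which tested 21 of the genes, 4 with the 7SL share as a covariate and 0 in females alone, and leaving out 1 sample gave 16 to 19. For HDM + Dex vs. HDM, the 0 called genes became 1 with a filter at 5 CPM, without trend, with a sex covariate and rescaling, or in males alone, 2 with median-of-ratios rescaling, without 7SL RNA or with the 7SL share as a covariate, and 3 with sample quality weights. Leaving out 1 sample gave 0 to 2 (2 without HDM replicate 2 or 6, 1 without HDM + Dex replicate 2 or 6). For the same comparison limma called 171 of all genes in the main fit and 302 in males alone. After rescaling, 352 of all genes were higher and 155 lower. For HDM + Dex vs. saline, the 1 called gene became 2 with a pseudocount of 5 or a sex covariate and rescaling, and 4 with only the 2 groups in the fit. It became 6 with a sex covariate, 18 with sample quality weights, and 0 with the 7SL share as a covariate or in females alone. In males alone 11 were called, and limma called 2196 of all genes there, compared with 335 in the main fit. In females alone limma called 9 of all genes. Leaving out 1 sample gave 0 to 4 (2 without HDM + Dex replicate 4, 4 without replicate 7). For aged vs. adult, quality weights gave 2 and leaving out 1 sample 0 to 1 (1 without aged saline replicate 4), in place of 0. The causes were not tested. No result changed sign while called.

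With the replicate block, the counts were 21, 0, 4 and 0 in the same order. Same-numbered samples had correlations of their deviations from -0.238 to 0.407, so that they share only a number. With 2 females a group, the female comparison has little precision, and the estimated depth limits genes under 0.299 CPM.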

Other observations

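Outside the naming rule stood Cyp4a12a and Cyp4a12b, fatty acid hydroxylases of male kidney and liver. Cyp4a12b was 0.140 to 1.45 CPM in aged saline lungs (median 1.06) and at the constant in 4 of 7 HDM lungs. Cyp4a12a was at the constant in all 7 HDM lungs and at most 0.808 CPM elsewhere. Cyp51 was 22.3 to 35.9 CPM in aged saline and 13.9 to 33.7 CPM in HDM lungs.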
